A study of Homo sapiens with 4 samples.

Results

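The genes described here are 9 components of receptor tyrosine kinase signalling: the receptors ALK, LTK, RET, IGF1R, INSR, FGFR1 and FGFR4, and the adaptors IRS1 and IRS2. They were taken by symbol, with every probe set of the array annotated to that symbol alone, which gave 38 probe sets. All 9 were among the 18244 genes measured, and 8 passed the intensity filter that 10946 genes passed; INSR did not. The samples were 4 arrays of Kelly cells, an established neuroblastoma line that carries amplified MYCN and an activated ALK. The cells were a derivative resistant to TAE684, an ALK kinase inhibitor, and all 4 cultures grew with 1 µM of it. Cultures were infected for 24 h with virus that carried a short hairpin against BORIS (shBORIS, n = 2) or against luciferase (shLUC, n = 2) and then kept for 48 h in puromycin. CTCFL, a relative of CTCF, encodes BORIS. Both groups are thus infected, selected populations under drug, and Kelly cells without drug or without resistance were not analysed here. The labels call the arrays of a group biological duplicates and name 1 construct against BORIS.

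Receptor tyrosine kinases are membrane proteins, most of which dimerise when a ligand binds. Once activated they phosphorylate each other and their adaptors, which starts RAS-ERK and PI3K-AKT signalling. ALK is normally expressed in the developing nervous system, binds the small secreted proteins ALKAL1 and ALKAL2, and drives neuroblastoma when mutated or amplified; LTK is its closest relative. RET binds ligands of the GDNF family together with a GFRA co-receptor and acts in sympathetic and enteric neurons. IGF1R and INSR bind insulin-like growth factors and insulin and signal through IRS1 and IRS2, while FGFR1 and FGFR4 bind fibroblast growth factors.

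The median tested gene was 0.48 higher (log2) in shBORIS cells on the deposited scale. Each log2 difference, shBORIS minus shLUC, is therefore given as deposited and after centring, which subtracts from each array its median log2 intensity over the genes tested. Genes were called at a limma adjusted p under 0.05. CTCFL, the target, had intensities of 701 and 737 with shBORIS against 3563 and 3376 with shLUC in its brightest probe set, lower on both arrays that carry the hairpin. Of the other 6 CTCFL probe sets, 4 also fell; of the 2 dimmest, 1 was not called as deposited (175 against 162 in mean intensity) and 1 was higher (55.3 against 38.6). Markers of the adrenergic, neuron-like state of neuroblastoma were bright: 11 of 13 listed were measured and all 11 passed the filter, with a summed intensity of 26836 to 27776 with shBORIS and 18924 to 19983 with shLUC. CHGA alone, at a mean of 6255 against 2133, made up much of that gap, and after centring 4 of the 11 rose and 6 fell, with a median of -0.15. Of markers of other cells, 2 of 6 measured Schwann cell and glial genes passed the filter (summed intensity 321 to 371 with shBORIS and 291 to 322 with shLUC), 3 of 8 fibroblast and mural genes (939 to 1008 and 1158 to 1193), 2 of 6 endothelial genes (340.0 to 359 and 302 to 339) and 1 of 6 immune genes (244 to 265 and 226 to 253). The fibroblast and mural genes COL1A1 and ACTA2 were lower, at -0.63 and -0.58 as deposited, and PDGFRB, of the same list, was higher, at 0.43, and not called after centring. DCN, which marks fibroblasts, was at 21.6 to 28.3 and PTPRC, which marks blood cells, at 10.75 to 15.9 on all arrays. Other genes of these lists were brighter: COL1A1 was at 451 to 779, PDGFRB at 198 to 287 and the immune gene CD68 at 70.3 to 87.0. The median of background probe sets was 15.4 to 16.9. The ratio of the ACTB control probe sets at the 3′ and 5′ ends, which tracks RNA integrity, was 1.36 and 1.32 with shBORIS and 1.46 and 1.38 with shLUC; the part of these markers and of RNA integrity in the results was not tested. In such bulk RNA, fewer cells with a transcript and less transcript per cell cannot be told apart.

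The members fell into 3 patterns. ALK and RET rose on both scales. IGF1R, IRS1 and IRS2 of the insulin and IGF axis and FGFR4 fell on both scales in their brightest probe sets. FGFR1 and LTK were higher as deposited and did not pass after centring, though some alternatives called them lower there. As deposited all 8 tested members were called, where 81.9% of all genes were; 4 were higher and 4 lower, where 77.2% of all genes were called higher and 4.64% lower. After centring 6 were called, where 59.1% of all genes were; 2 rose and 4 fell, where 30.3% of all genes rose and 28.8% fell. As deposited, the shBORIS arrays lay above both shLUC arrays for 4 members and below both for 4, as they did for 83.8% and 6.65% of all genes. After centring they lay above for 2 and below for 6, against 40.4% and 39% of all genes. The median member differed by 0.0056 as deposited and by -0.47 after centring, against 0.48 and 0.0014 over all genes tested. As deposited, 2 members were called lower without shLUC replicate 1 and 2 higher without shLUC replicate 2. The members were chosen with results of these arrays known, so these shares describe the list.

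**Figure D1:**
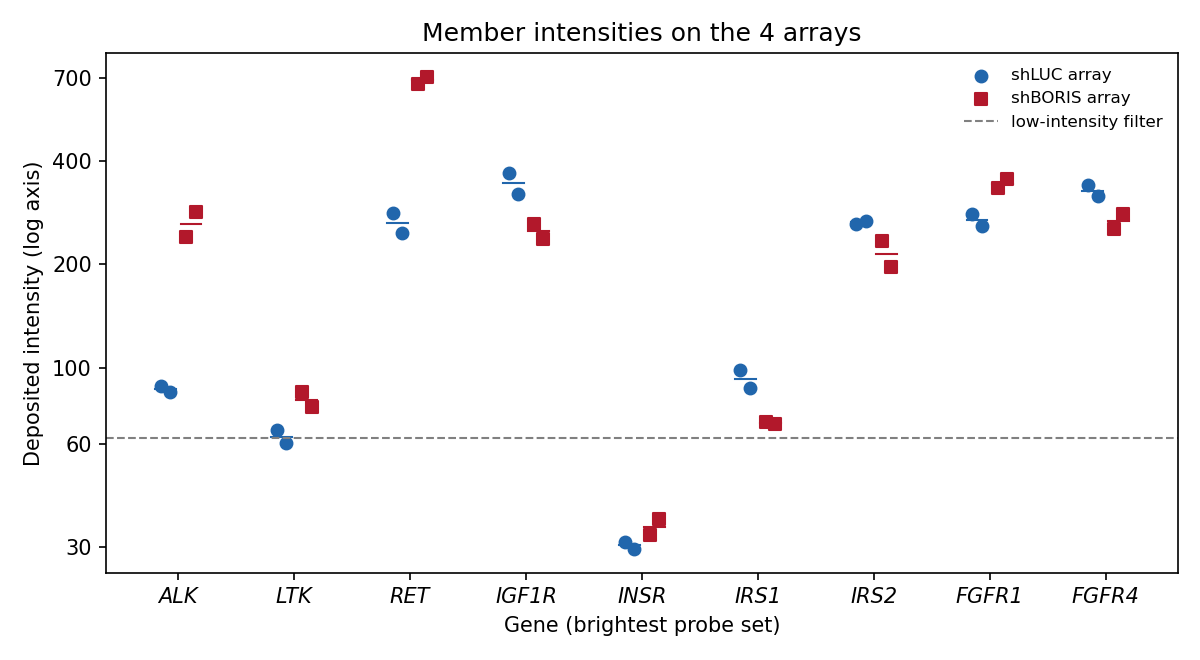
Deposited intensity (log axis) of the brightest probe set of each gene on the 4 arrays; blue circles are shLUC arrays, red squares shBORIS arrays, short lines the group means and the dashed line the intensity filter at 62.2. For ALK and RET the shBORIS arrays lie far above the shLUC arrays, for IGF1R, IRS1, IRS2 and FGFR4 below them, and INSR lies under the filter on every array.

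ALK (Entrez gene 238), the kinase that TAE684 inhibits, was brighter with shBORIS in both of its probe sets. The brighter probe set read 240.1 and 284 with shBORIS against 88.3 and 84.6 with shLUC, a mean of 262 ± 30.8 (SD, n = 2) against 86.4 ± 2.60 (SD, n = 2). The groups were well apart, by more than the gap between the replicates of either group. The difference was 1.44 as deposited (SE 0.11; limma adjusted p = 1.59e-38) and 0.96 after centring (SE 0.075; limma adjusted p = 4.97e-06), that is 2.70-fold and 1.94-fold. The second probe set read 209 and 256 against 91.6 and 88.6, and rose by 1.22 as deposited and by 0.74 after centring (SE 0.084; limma adjusted p = 1.15e-05 over all 49293 probe sets). ALK kept its direction and its call on both scales in all 14 alternative settings, with a range of 0.99 to 1.58 as deposited and 0.71 to 1.40 after centring. Quantile normalization, cyclic loess and ERCC centring replace either scale, so their values count in both ranges.

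RET (Entrez gene 5979), the receptor of the GDNF family, rose in all 3 of its probe sets as deposited. The brightest read 673 and 707 with shBORIS against 282 and 248 with shLUC, a mean of 689.8 ± 24.0 (SD, n = 2) against 265 ± 24.5 (SD, n = 2). The replicates of each group were close together and the groups far apart. The difference was 1.33 as deposited (SE 0.11; limma adjusted p = 4.5e-30) and 0.85 after centring (SE 0.058; limma adjusted p = 2.35e-06), that is 2.52-fold and 1.81-fold. The second probe set, at 142 and 155 against 66.6 and 62.3, rose by 1.03 as deposited and by 0.55 after centring. The dimmest, at 91.3 and 86.3 against 48.2 and 53.0, rose by 0.66 as deposited and read 0.18 after centring (limma adjusted p = 0.141), where its groups overlapped. RET kept its direction and its call in all 14 settings on both scales, at 0.75 to 1.42 as deposited and 0.57 to 1.30 after centring. Both ranges again include the settings that replace the scale.

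ALK and RET were the members that rose, so the RefSeq sequences around their starts are shown, from 250 bases before to 50 bases after each start that the reference table (GRCh38.p14) lists. The ALK windows are chr2:29921537-29921836 and chr2:29223774-29224073, both on the minus strand. The RET windows are chr10:43076819-43077118 and chr10:43104515-43104814, both on the plus strand. For each gene the first window holds the upstream start and the second a start further downstream, called internal here. Capitals mark a match to any of 3 motifs searched on both strands: a CTCF-type core (CCANNAG joined directly to NNGGC), the E-box CACGTG that MYC proteins bind, and the forkhead motif TGTTTAC.
ALK, upstream start: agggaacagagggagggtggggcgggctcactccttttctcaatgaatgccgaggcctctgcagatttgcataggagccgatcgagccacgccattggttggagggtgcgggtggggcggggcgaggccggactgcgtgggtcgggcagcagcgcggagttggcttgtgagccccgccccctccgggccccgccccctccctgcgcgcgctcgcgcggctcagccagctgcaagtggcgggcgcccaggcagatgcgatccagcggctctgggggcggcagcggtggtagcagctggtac
ALK, internal start: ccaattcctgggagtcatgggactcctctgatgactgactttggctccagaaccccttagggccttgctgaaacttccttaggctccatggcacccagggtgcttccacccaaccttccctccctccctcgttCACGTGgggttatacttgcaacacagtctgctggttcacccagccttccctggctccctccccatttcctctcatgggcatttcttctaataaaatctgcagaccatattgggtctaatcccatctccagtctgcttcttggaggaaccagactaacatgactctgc
RET, upstream start: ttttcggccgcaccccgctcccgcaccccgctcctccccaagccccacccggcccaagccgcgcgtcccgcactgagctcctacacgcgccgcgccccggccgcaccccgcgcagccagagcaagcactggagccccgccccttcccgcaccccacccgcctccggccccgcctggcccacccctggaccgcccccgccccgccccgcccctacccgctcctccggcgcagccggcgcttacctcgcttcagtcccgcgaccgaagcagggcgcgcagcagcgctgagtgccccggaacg
RET, internal start: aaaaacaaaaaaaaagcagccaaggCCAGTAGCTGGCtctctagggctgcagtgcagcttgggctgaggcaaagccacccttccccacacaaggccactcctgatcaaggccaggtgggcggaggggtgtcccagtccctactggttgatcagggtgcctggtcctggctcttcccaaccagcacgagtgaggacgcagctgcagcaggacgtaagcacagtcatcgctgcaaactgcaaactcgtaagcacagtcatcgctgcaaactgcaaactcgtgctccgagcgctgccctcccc
The upstream windows of ALK and RET held none of the 3 motifs. Their share of G and C was 71% and 78.7%, above the median of 58.7% over 35116 windows of this length, as it was for members that fell (79.7% for IGF1R, 79.3% for IRS1, 75.7% for IRS2 and 78.7% for the upstream start of FGFR4). The internal ALK window held 1 E-box, at position -117 from the start, and the internal RET window held 1 CTCF-type core, at position -225. Over all windows, 2.41% held the CTCF-type core, 7.26% the E-box and 3.42% the forkhead motif. Of the 9 members, 8 had a window and 11 windows were listed. Besides ALK, IRS1 and the internal start of FGFR4 held 1 E-box each, and the windows of IGF1R, INSR, IRS2 and LTK held no match. The array does not show which start is used, and a match of letters is a description of the sequence only.

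LTK (Entrez gene 4058), the receptor most like ALK, was dim and did not pass after centring. Its brighter probe set read 84.7 and 76.6 with shBORIS against 65.6 and 60.03 with shLUC, close to the filter. The groups did not overlap as deposited, with a difference of 0.29 (SE 0.11; limma adjusted p = 0.0131). After centring it read -0.18 (SE 0.096; limma adjusted p = 0.125). The second probe set, under the filter, gave nearly the same values, 0.30 as deposited and -0.18 after centring. The call as deposited was lost without shBORIS replicate 1 (limma adjusted p = 0.123) and without shLUC replicate 2 (limma adjusted p = 0.0972), and after quantile normalization the difference was -0.010. After centring, LTK was called lower without shBORIS replicate 1 (-0.29, limma adjusted p = 0.0368) and with a pseudocount of 64 (-0.21, limma adjusted p = 0.0171).

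IGF1R (Entrez gene 3480), the receptor of insulin-like growth factors, was lower in its brightest probe set. It read 262 and 238 with shBORIS against 371 and 322 with shLUC. The groups did not overlap, and their means were further apart than the replicates of either group. The difference was -0.44 as deposited (SE 0.11; limma adjusted p = 1.0e-04) and -0.92 after centring (SE 0.080; limma adjusted p = 8.93e-06). The other 6 IGF1R probe sets did not pass as deposited, and 3 of them lay above the filter. The next brightest read 191 and 212 against 205 and 221, so the groups overlapped, with -0.072 as deposited (limma adjusted p = 0.608) and -0.55 after centring. Those at the next levels read 116 and 132 against 132 and 134, and 71.5 and 72.5 against 72.8 and 66.8, with groups that overlapped as deposited. After centring all 7 fell, with differences of -0.92 to -0.37. As the mean of its 7 probe sets, IGF1R read -0.090 as deposited and did not pass (limma adjusted p = 0.308). IGF1R overlaps the antisense RNA gene IRAIN in the reference annotation, and which strand each probe set reads was not given.

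INSR (Entrez gene 3643), the insulin receptor, was at the lower edge of what the array measured. Its 5 probe sets had intensities between 13.4 and 36.0 on all arrays, near the background medians given above. The brightest read 32.5 and 36.0 with shBORIS against 31.0 and 29.5 with shLUC. With no intensity filter it differed by 0.12 as deposited (limma adjusted p = 0.397), where 53.6% of all 18244 genes were called higher and 3.73% lower. After centring, here on the median of all 18244 genes, it read -0.24 (limma adjusted p = 0.0549), where 25.9% of genes were called higher and 27.7% lower. As single probe sets, none of the 5 passed as deposited, and all 5 passed as lower after centring, with differences of -0.67 to -0.36. Of all probe sets under the filter, 69.3% were likewise called lower after centring.

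IRS1 (Entrez gene 3667), an adaptor that carries the signal of both receptors, read 69.5 and 68.6 with shBORIS against 98.3 and 87.2 with shLUC in its brightest probe set. The groups did not overlap, and the difference was -0.35 as deposited (SE 0.11; limma adjusted p = 0.00251) and -0.83 after centring (SE 0.084; limma adjusted p = 2.31e-05). A second probe set gave -0.36 and -0.84. The remaining one overlapped between groups, at 78.5 and 60.8 against 76.1 and 59.97, with 0.026 as deposited and -0.45 after centring. Without shLUC replicate 1 the difference of IRS1 as deposited was -0.28 and did not pass (limma adjusted p = 0.0510).

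IRS2 (Entrez gene 8660), the other adaptor of these receptors, read 234 and 196 with shBORIS against 263 and 268 with shLUC. Both shBORIS arrays were lower, and shBORIS replicate 2 was the lowest. The difference was -0.29 as deposited (SE 0.11; limma adjusted p = 0.0100) and -0.77 after centring (SE 0.10; limma adjusted p = 1.14e-04). Without shBORIS replicate 2 it read -0.17 as deposited, short of the threshold (limma adjusted p = 0.262), and without shLUC replicate 2 it read -0.28 (limma adjusted p = 0.0508). As the mean of its probe sets it read -0.12 and did not pass (limma adjusted p = 0.238). The other IRS2 probe set read 178 and 189 against 176 and 176, with 0.057 as deposited (limma adjusted p = 0.693) and -0.42 after centring. IRS1 and IRS2 thus each had a probe set that fell as deposited and a probe set that did not pass.

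FGFR1 (Entrez gene 2260), a receptor of fibroblast growth factors, was higher as deposited. Its brightest probe set read 333 and 355 with shBORIS against 281 and 259 with shLUC. The groups did not overlap, with 0.33 as deposited (SE 0.11; limma adjusted p = 0.00352) and -0.14 after centring (SE 0.059; limma adjusted p = 0.0587). The 4 FGFR1 probe sets above the filter all rose as deposited, by 0.33 to 0.52, and read -0.14 to 0.047 after centring. The other 3, under the filter, did not pass as deposited and were lower after centring. The direction of FGFR1 turned to -0.18 after quantile normalization (limma adjusted p = 0.0262) and to -0.20 after cyclic loess normalization (limma adjusted p = 0.0157). After centring it was called lower with the 60th percentile filter (-0.21, limma adjusted p = 0.0101) and with the mean of its probe sets (-0.18, limma adjusted p = 0.0120). As deposited, its call was lost without shBORIS replicate 2 (0.29, limma adjusted p = 0.0580) and without shLUC replicate 2 (0.28, limma adjusted p = 0.0556).

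FGFR4 (Entrez gene 2264), another receptor of the same ligand family, was lower in its brightest probe set. It read 254 and 280.2 with shBORIS against 340.1 and 317 with shLUC. The groups did not overlap, and the difference was -0.28 as deposited (SE 0.11; limma adjusted p = 0.0133) and -0.76 after centring (SE 0.060; limma adjusted p = 5.05e-06). All 7 FGFR4 probe sets were above the filter; as deposited 3 were lower, 3 not called and 1 higher. The brightest 3 were those called lower, at -0.36 to -0.28. The dimmest, at 86.8 and 106 against 69.0 and 56.9, rose by 0.51 as deposited (limma adjusted p = 1.74e-05) and read 0.030 after centring (limma adjusted p = 0.787). The other 6 fell after centring, with differences of -0.83 to -0.39. As deposited the call of FGFR4 was lost without shBORIS replicate 1 (-0.22, limma adjusted p = 0.155) and without shLUC replicate 1 (-0.24, limma adjusted p = 0.0957), and the mean of its 7 probe sets read -0.094 (limma adjusted p = 0.332).

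Over all 38 member probe sets, 12 were higher, 7 lower and 19 not called as deposited, where 51.8% of all probe sets were called higher and 3.22% lower. After centring, 4 were higher, 26 lower and 8 not called, where 16.4% and 46.2% of all probe sets were called higher and lower. Of the 26 member probe sets above the filter, 4 rose and 15 fell after centring, where 29.9% and 26.8% of all probe sets above it did; the 4 were both of ALK and 2 of RET. Of the 12 under the filter, 11 were lower after centring and 0 higher, where 69.3% and 0.549% of all probe sets under it were, so centring places most dim probe sets below 0. As deposited 1 of the 12 was higher and 0 lower by limma (0 lower also at an unadjusted p under 0.05), where 21.6% and 2.82% of all probe sets under the filter were.

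**Figure D2:**
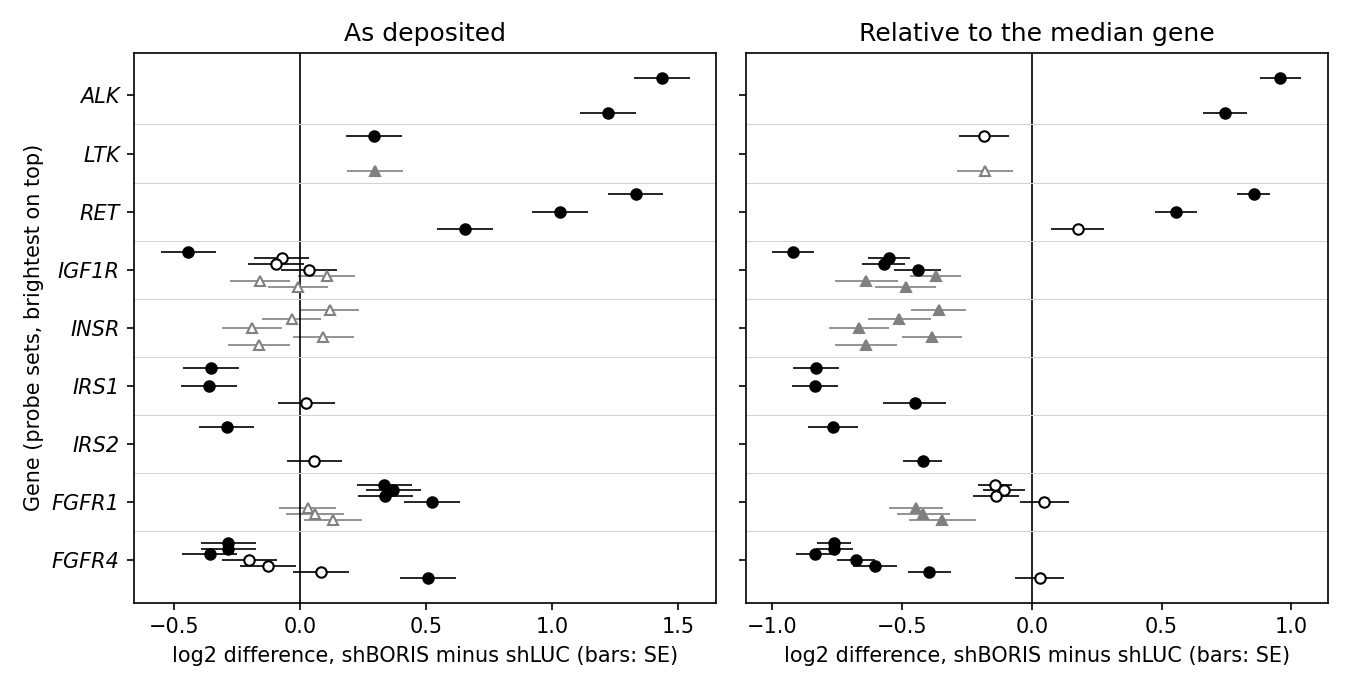
Log2 difference of shBORIS minus shLUC for each of the 38 probe sets, as deposited (left) and after centring on the median gene (right), with the model's SE; black circles are probe sets above the intensity filter, grey triangles those under it, filled symbols passed adjusted p under 0.05, and the brightest probe set of a gene is on top. ALK and RET lie right of 0 on both scales, while probe sets of IGF1R, INSR, IRS1, IRS2 and FGFR4 straddle 0 as deposited.

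Among the 58 receptor tyrosine kinases listed, ALK and RET stood near the upper end. Of the 58, 56 were measured and 32 passed the filter. After centring 4 of the 32 rose, 15 fell and 13 were not called, and the median was -0.18; as deposited 18 were higher and 4 lower. Over all genes tested, 30.3% rose and 28.8% fell after centring, and 77.2% were higher and 4.64% lower as deposited. EPHA7, an ephrin receptor of the nervous system, was above ALK, at 0.97 (SE 0.073; mean intensity 223 with shBORIS and 72.0 with shLUC), by less than the SE of either. RET came next, at 0.85, and RYK, a WNT co-receptor, rose by 0.56 (limma adjusted p = 2.15e-05). At the lower end, MERTK, a receptor that takes part in the uptake of dying cells, read -0.95 (SE 0.12), IGF1R -0.92, the ephrin receptor EPHA2 -0.87 and FGFR4 -0.76, with gaps between neighbours under the larger SE of the pair. EPHA8 read -0.69, and the FGF receptors FGFR2 and FGFR3 read -0.46 and -0.44. These 3 fell after centring and did not pass as deposited, at -0.21, 0.020 and 0.042. EPHA2 did not pass as deposited without shBORIS replicate 1 (-0.13, limma adjusted p = 0.369). Of the 26 tested receptors that are not members, 2 rose and 13 fell after centring, and as deposited 14 were higher and 2 lower, or 1 lower without shBORIS replicate 1.

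**Figure D3:**
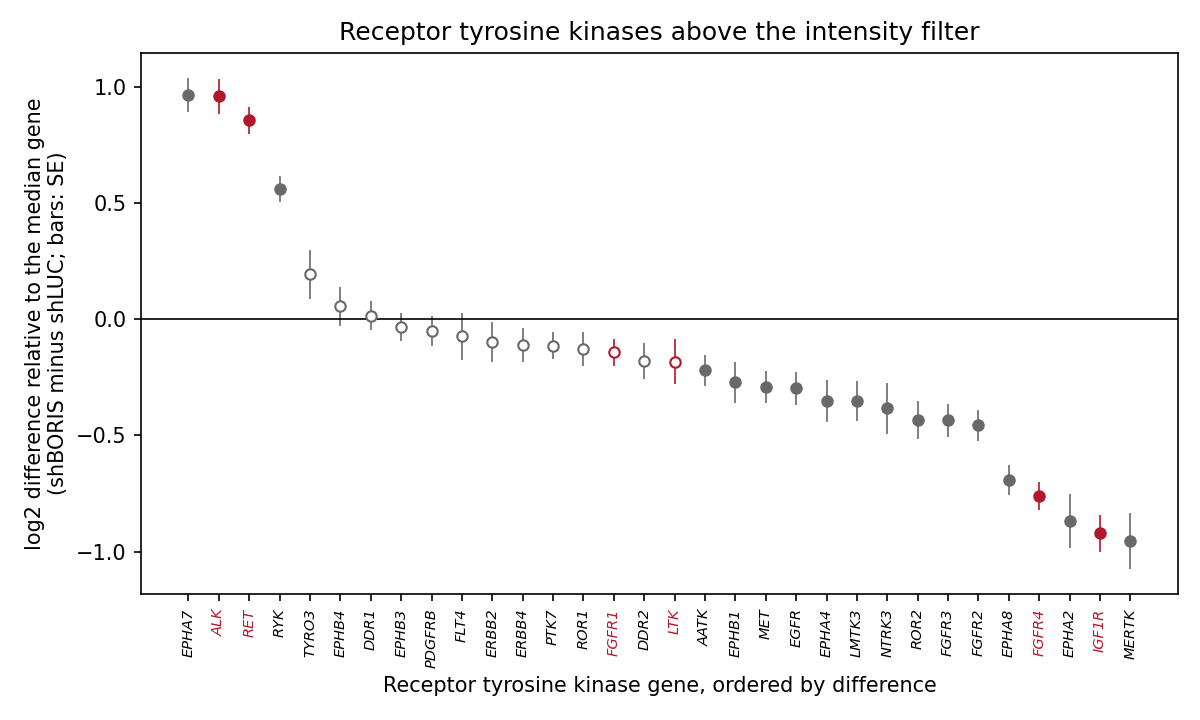
Log2 difference of shBORIS minus shLUC after centring on the median gene (bars are SE) for the 32 receptor tyrosine kinases above the filter, ordered by difference; members are red, other receptors grey, and filled points passed adjusted p under 0.05. ALK and RET follow EPHA7 at the top, and FGFR4 and IGF1R are among the lowest 4.

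Few ligands of the member receptors were bright enough to be tested, and most of those tested were lower after centring. Of 30 listed, 27 were measured and 9 passed the filter. GDNF, IGF2 and INS (insulin) were not among the 27 measured, so their levels are not known here. After centring 0 rose by limma, also at an unadjusted p under 0.05, and 8 fell, where 30.3% of all genes rose and 28.8% fell. The median of these ligands was -0.54. With no filter, and centred on all 18244 genes, 13 of the 27 were lower, where 27.7% of those genes were. On the deposited scale 2 were higher and 1 lower, where 77.2% and 4.64% of all genes were. The ligand lower on both scales was NRTN (neurturin), which acts on RET through GFRA2 and read 75.7 and 85.8 with shBORIS against 198 and 192 with shLUC. The groups were far apart, with -1.12 as deposited (limma adjusted p = 7.3e-24) and -1.60 after centring (SE 0.074; limma adjusted p = 3.47e-07). MDK (midkine), a heparin-binding growth factor, was bright, at 5773 and 6267 against 6163 and 6418; the groups overlapped, with -0.064 as deposited (limma adjusted p = 0.486) and -0.54 after centring. GDF15, FGF19 and FGF2 read -0.59, -0.67 and -0.49 after centring, all called, and did not pass as deposited, at -0.12, -0.19 and -0.0083. As the mean of its 3 probe sets, FGF2 was instead called higher as deposited, at 0.28 (limma adjusted p = 0.00190).

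Of the co-receptors and binding proteins, 26.3% of those tested rose and 42.1% fell after centring, where 30.3% and 28.8% of all genes did. Of 30 measured, 19 passed the filter. After centring 5 rose, 8 fell and 6 were not called. As deposited 11 were higher and 2 lower, where 77.2% and 4.64% of all genes were. GPC2, a cell-surface heparan sulfate proteoglycan, read 159 and 168 with shBORIS against 280.2 and 237 with shLUC. Its difference was -0.61 as deposited (limma adjusted p = 4.5e-08) and -1.09 after centring (limma adjusted p = 1.56e-06). SORL1, a sorting receptor of endosomes, read -0.43 and -0.91, and the mean of its 2 probe sets did not pass as deposited (-0.15, limma adjusted p = 0.125). IGF2R, which clears IGF2 from the cell surface, read 302 and 321 against 162 and 153, and rose by 0.92 as deposited and by 0.44 after centring (limma adjusted p = 2.04e-04). GFRA2, the co-receptor for neurturin, was named after its value was seen; it read 1480.3 and 1609 against 913 and 864, a rise of 0.79 as deposited and of 0.31 after centring (limma adjusted p = 4.53e-04). SDC3, a syndecan that binds pleiotrophin, and IGFBPL1 read -0.64 and -0.55 after centring and did not pass as deposited, at -0.17 and -0.068.

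Of the adaptors and negative regulators, 29% of those tested rose and 35.5% fell after centring, near the 30.3% and 28.8% of all genes. Of 43 measured, 31 passed the filter; 9 rose, 11 fell and 11 were not called after centring, with a median of -0.027, and as deposited 24 were higher and 2 lower (77.2% and 4.64% of all genes were), or 1 lower without shBORIS replicate 1 or shLUC replicate 1. SOS1, the exchange factor that loads RAS, read 918 and 1026 with shBORIS against 460.3 and 385 with shLUC, and rose by 1.18 as deposited and by 0.70 after centring (limma adjusted p = 1.22e-05). DOK4, an adaptor that binds RET, rose by 1.07 as deposited and by 0.60 after centring (limma adjusted p = 1.98e-05). LRIG1, a membrane protein that restrains receptors including RET, read 114 and 112 against 155 and 148, with -0.37 as deposited and -0.85 after centring (limma adjusted p = 9.65e-06). SHC2, a phosphotyrosine adaptor, read -0.28 and -0.76, and its call as deposited was lost without shBORIS replicate 1 (-0.14, limma adjusted p = 0.322) and without shLUC replicate 1 (-0.20, limma adjusted p = 0.161). ERRFI1, an inhibitor of ERBB receptors, fell to -0.66 after centring and read -0.18 as deposited (limma adjusted p = 0.113).

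The genes whose pattern over the 4 arrays was most like that of ALK were USP1, DCBLD2 and ESCO2, with Euclidean distances of 0.0343, 0.0448 and 0.0475 between centred log2 values less the gene's own mean. Their differences after centring were 0.96, 0.94 and 1.00. For RET the nearest were CACUL1, POLR3G and SMC4, at distances of 0.0179, 0.0195 and 0.0246 and differences of 0.87, 0.85 and 0.87. For IGF1R they were SORL1, SLCO4C1 and MINDY3, at distances of 0.0262, 0.0490 and 0.0570 and differences of -0.91, -0.93 and -0.97. Such likeness over 4 arrays in 2 groups is mostly likeness of the difference between groups.

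Neighbouring genes on the chromosome went both ways after centring, where 30.3% of all genes tested rose and 28.8% fell. Among the 3 measured protein-coding genes on either side of ALK on chromosome 2, 4 passed the filter: after centring LCLAT1 rose by 0.43, LBH fell by 0.65, and CLIP4 (-0.14) and YPEL5 (-0.036) did not pass. Around RET on chromosome 10, ZNF37A and BMS1 rose by 0.74 and 0.29 and CSGALNACT2 fell by 0.26. Around IGF1R on chromosome 15, ARRDC4 and TTC23 rose by 0.71 and 0.32, while RGMA (-0.079) and SYNM (-0.064) did not pass. As deposited, LBH (-0.17) and CSGALNACT2 (0.22) did not pass. The other tested neighbours were all called higher there, where 77.2% of all genes were.

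**Figure D4:**
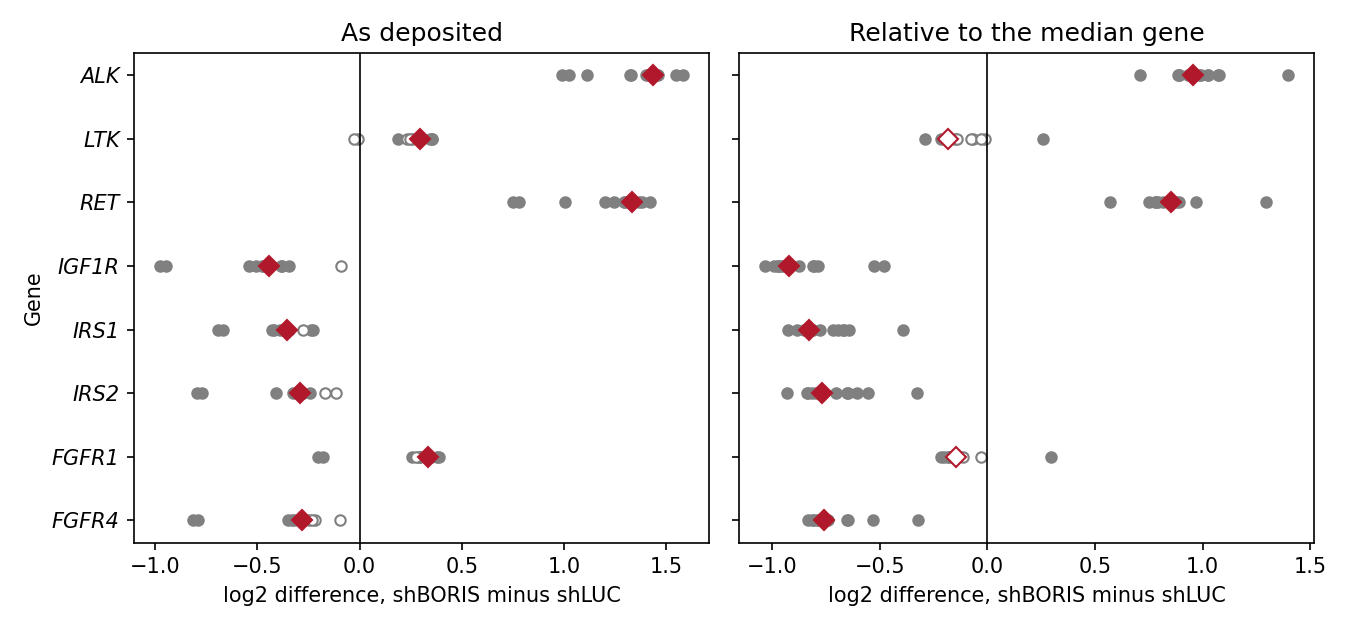
Log2 difference of shBORIS minus shLUC for the 8 tested members as reported (red diamonds) and in each alternative setting (grey circles), as deposited (left) and after centring on the median gene (right); filled symbols passed adjusted p under 0.05. ALK and RET stay right of 0 and filled throughout, and FGFR1 and LTK have values on both sides of 0. Points for quantile normalization, cyclic loess and ERCC centring are the same in both panels.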

How the data were processed

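RNA (100 ng per sample, with ERCC spike-ins) was labelled and read on Affymetrix PrimeView arrays, per the labels' protocols. The authors deposited linear intensities, 1 value per probe set and array; the submitters' processing notes name MAS5, affy and R 3.1.3 without their roles, their scaling being not given in the sources used here. Median ERCC intensities were 24.4 to 25.8 over the arrays, against 60.4 to 84.5 for cellular probe sets, so the deposited scale may be set by the spike-ins, which no label states; a difference as deposited would then be a level against spike-in. The number of arrays limits the precision.

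Of 49495 probe sets, 202 controls were left out, and 1333 with several symbols and 2682 without a listed symbol were left out of the gene fits; of the other 45278, 45208 had their symbol updated by Entrez identifier (GRCh38.p14). A gene was its brightest probe set. Means under the 40th percentile (62.2) were dropped. Limma 3.58.1 (R 4.3.3) fitted log2(intensity + 16), which understates the change of dim genes, on the hairpin alone with an intensity trend and 2 residual degrees of freedom. P-values are two-sided, Benjamini-Hochberg adjusted over 10946 genes, or over 49293 probe sets for single probe sets, and rest on the spread between duplicates. The prior had infinite degrees of freedom as deposited and 7.94 after centring. As deposited, the SE of a gene thus came from the spread of genes of like intensity, not from its own duplicates. This makes the smallest p-values nominal. The smallest p that exact permutation of these arrays allows is 0.333. The fit was tested on simulated data. Alternatives changed the scale, pseudocount, filter, probe set rule, prior or replicate block, or left out an array. Besides the members, named genes are, of other receptor tyrosine kinases, up to 5 called rises and falls, up to 5 called genes of smallest p per pathway list, the 3 nearest patterns and the neighbours. Members and lists were chosen with earlier results of these data known.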

Additional observations from a re-analysis of the deposited data

How the results depend on the processing

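ALK and RET rose, and IGF1R, IRS1, IRS2 and FGFR4 fell, after centring in every alternative run; IRS1 and LTK did not reach the 60th percentile filter. FGFR1 and LTK changed direction with the scale. Quantile normalization, cyclic loess and ERCC centring each replaced both scales, so each gave the same values as deposited and after centring. Quantile normalization and cyclic loess level the arrays to each other, as centring does, and ERCC centring does not level cellular genes. With quantile normalization LTK read -0.010 and FGFR1 -0.18. With cyclic loess, which was chosen after seeing the data, they read -0.027 and -0.20. With ERCC centring they read 0.26 and 0.30. Higher and lower calls with quantile normalization were 2 and 5 for members, 3 and 12 for other receptor tyrosine kinases, 0 and 8 for ligands, 3 and 7 for co-receptors and binding proteins, 8 and 11 for adaptors and negative regulators and 3225 and 2839 for all genes. With cyclic loess they were 2 and 5, 2 and 13, 0 and 8, 3 and 8, 8 and 13, and 2955 and 3080. With ERCC centring they were 4 and 4, 14 and 3, 1 and 2, 11 and 2, 24 and 3, and 8233 and 592. With no filter, 5 other receptors were lower and 5 ligands higher as deposited, and 13 ligands, 14 co-receptors, 6 adaptors and 5053 of all genes were lower after centring. With the 60th percentile filter, which tests fewer genes, calls as deposited were 9 and 1 for other receptors, 0 and 0 for ligands, 0 lower for adaptors and 273 lower for all genes. After centring they were 1 and 8 for other receptors, 2 lower for ligands, 3 higher for co-receptors, 5 higher for adaptors and 2202 higher for all genes. With the mean of probe sets, 1 member, 2 ligands and 1 co-receptor were lower and 4 ligands higher as deposited, and 3 co-receptors and 5 adaptors rose after centring. Beyond this change of scale, the cause of these changes was not tested.

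Without each array in turn, as deposited, 2 to 4 members were higher and 2 to 3 lower, 1 to 2 other receptors lower, 1 to 2 ligands higher and 1 to 3 adaptors lower; after centring, 3 to 4 co-receptors rose. The replicate number as a block left 2 members lower and 1 ligand higher as deposited, and IRS2 and FGFR4 lost their calls (limma adjusted p = 0.0703 and 0.0901). The labels do not say what a number shares, and same-numbered arrays deviated together at a correlation of 0.0979 across genes. Among other named genes, FGFR2 and FGFR3 read -0.49 and -0.37 with quantile normalization and -0.52 and -0.40 with cyclic loess. With ERCC centring FGFR2 read -0.016 and FGFR3 0.0053. As deposited, FGF2 read 0.28 with the mean of probe sets and was called higher (limma adjusted p = 0.00190). Leaving out an array gave, as deposited, -0.077 to 0.12 for FGFR2, -0.092 to 0.075 for FGF2 and -0.19 to 0.051 for IGFBPL1. INSR was near background, where the pseudocount understates differences.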

Other observations

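Among the receptor tyrosine kinases under the intensity filter, 3 were lower in shBORIS cells on both scales; they are named after their values were seen. The fit with no filter gave 3 higher and 3 lower as deposited of the 23 such receptors that are not members, and 0 higher and 10 lower after centring, here on the median of all 18244 genes. Over those genes 53.6% were called higher and 3.73% lower as deposited, and 25.9% and 27.7% after centring. ERBB3, a neuregulin receptor of neural crest and Schwann cells, read 23.4 and 22.7 with shBORIS against 74.3 and 66.2 with shLUC, near background in the shBORIS cells. Its difference was -1.14 as deposited and -1.504 after centring (SE 0.096; limma adjusted p = 5.36e-07). NTRK2, the receptor for brain-derived neurotrophic factor, read 28.8 and 31.4 against 64.8 and 59.5, with -0.76 as deposited and -1.12 after centring (limma adjusted p = 2.50e-06). EPHA6, an ephrin receptor, read 21.0 and 28.8 against 37.8 and 44.4, with -0.49 and -0.85 (limma adjusted p = 1.26e-04). The groups did not overlap for these 3 as deposited. Each value is of the brightest of several probe sets (3 for ERBB3, 10 for NTRK2 and 5 for EPHA6). The others are not given here. The pseudocount understates differences this close to background.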
